A study of Mus musculus with 12 samples.

Results

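Pm20d1, Rab7b, Ddx59 and Acadl are 4 genes of mouse chromosome 1 that lie more than 20 Mb from Akp3, the gene deleted in intestinal alkaline phosphatase (IAP) knockout mice, and whose jejunal transcript levels differed between knockout and wild-type mice. They were chosen through the RefSeq accessions of their array probes, out of 706 tested genes of chromosome 1 beyond that distance and 27565 genes tested in all, of which 15812 carry a gene symbol and the others are unnamed probes counted as genes. The 4 genes were selected on the difference between genotypes measured in these same arrays. That difference is therefore described below. The fit across all genes is applied to it only as a check, in the main fit and in its alternatives, and no result rests on it. The tests that bear on results are those of the peptide IIAEK, which the choice did not name. The 4 genes have 5 probes among the 56605 on the array. One each stands for Pm20d1, Rab7b and Acadl, and there are 2 for Ddx59.

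The 4 genes have unrelated roles. Pm20d1 encodes a secreted enzyme of the M20 peptidase family that joins fatty acids to amino acids and also splits the resulting N-acyl amino acids, lipids known for raising respiration in fat tissue. Rab7b encodes a small GTPase of late endosomes and lysosomes that directs traffic between endosomes and the trans-Golgi network and dampens Toll-like receptor signalling in macrophages. Ddx59 encodes a DEAD-box RNA helicase that has been linked to Hedgehog signalling through a human orofaciodigital syndrome. Acadl encodes long-chain acyl-CoA dehydrogenase, which carries out the first step of mitochondrial beta-oxidation, the route by which enterocytes and other cells burn long-chain fatty acids.

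The arrays measured total RNA of the jejunum from male mice in 4 groups of 3, in which wild-type mice and IAP knockout (Akp3-/-) mice were each given vehicle or IIAEK. The mice were 7 weeks old at the start. For 14 days they received, once daily by mouth, either carboxymethylcellulose alone at 5 g/L or the same vehicle with IIAEK, a pentapeptide known for lowering cholesterol, at 600 mg/kg body weight, and the jejunum was taken after 8 h of fasting. Both treatments are thus given in carboxymethylcellulose, and the strain background of either genotype is not given in the sources used here. The labels number the replicates 1 to 3 and do not say whether each is a separate mouse, so the p-values measure the spread between these samples.

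All levels are log2 values of the probe's signal relative to the 75th percentile of its array, so that 0 is the signal of the probe at that percentile. That percentile lay between 575 and 816 signal units, and the share of spots well above background lay between 60.0% and 67.1%. Akp3 itself was well above background on 5 of the 6 wild-type arrays, at levels from -4.43 to -1.61 on those 5. On wild-type vehicle replicate 3 it lay at -6.42. It was well above background on none of the knockout arrays, where it lay between -7.33 and -5.96, so the genotypes overlapped. A second Akp3 probe was well above background on 2 of 12 arrays. Of the enterocyte markers, 8 of 8 were well above background on all 12 arrays. The arrays lay on 2 slides, with 2 wild-type and 4 knockout arrays on the first and 4 wild-type and 2 knockout arrays on the second, so values within each slide are given beside the pooled ones.

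Pm20d1 was higher in the knockout on both treatments. In wild type its level was 0.19, -0.06 and 0.41 on vehicle and 0.90, 0.15 and 0.35 on IIAEK, in replicates 1, 2 and 3. In the knockout it was 1.22, 1.72 and 1.41 on vehicle and 1.56, 1.44 and 1.49 on IIAEK. Every knockout array lay above every wild-type array, with the nearest pair, knockout vehicle replicate 1 and wild-type IIAEK replicate 1, being 0.32 apart. The wild-type mean was 0.18 ± 0.24 (SD, n = 3) with vehicle and 0.47 ± 0.39 with IIAEK, and the knockout mean was 1.45 ± 0.25 with vehicle and 1.497 ± 0.06 with IIAEK. Knockout minus wild type was 1.27 on vehicle, 1.03 on IIAEK and 1.15 over both (SE 0.15), which is 2.22-fold. Slide 1 alone gave 0.94, slide 2 alone gave 1.24, and a fit with slide as a block gave 1.09. From lowest to highest the order of the means was wild-type vehicle, wild-type IIAEK, knockout vehicle and knockout IIAEK, and the arrays of neighbouring groups overlapped at the first and at the last step of that order.

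Rab7b, the gene next to Pm20d1 among those tested, was lower in the knockout. Its wild-type levels were 0.75, 0.60 and 0.23 on vehicle and 0.16, 0.74 and 0.79 on IIAEK. Its knockout levels were 0.33, -0.37 and -0.74 on vehicle and -0.59, -0.89 and -0.98 on IIAEK. On vehicle the genotypes overlapped, since knockout vehicle replicate 1 lay above wild-type vehicle replicate 3, whereas on IIAEK all 3 knockout arrays lay below all 3 wild-type arrays. Over both treatments 5 of 6 knockout arrays lay below every wild-type array. The wild-type mean was 0.53 ± 0.27 with vehicle and 0.57 ± 0.35 with IIAEK, against -0.26 ± 0.54 and -0.82 ± 0.20 for the knockout (SD, n = 3). Knockout minus wild type was -0.79 on vehicle, -1.38 on IIAEK and -1.09 over both (SE 0.19), which is 2.12-fold lower. Rab7b had the widest spread within a group of the 4 genes, in the knockout on vehicle. By slide the difference was -0.84 on the first and -1.45 on the second, and the block fit gave -1.14. In order of the means, knockout IIAEK was lowest, followed by knockout vehicle, wild-type vehicle and wild-type IIAEK, and the arrays of neighbouring groups overlapped at all 3 steps.

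Ddx59 was higher in the knockout on both treatments. Its wild-type levels were -3.18, -2.997 and -2.89 on vehicle and -2.93, -2.74 and -2.91 on IIAEK. The knockout levels were -2.35, -2.31 and -2.15 on vehicle and -2.30, -2.34 and -2.23 on IIAEK. No knockout array overlapped a wild-type array, and the smallest gap was 0.39. The wild-type mean was -3.02 ± 0.15 with vehicle and -2.86 ± 0.11 with IIAEK, against -2.27 ± 0.10 and -2.29 ± 0.06 for the knockout (SD, n = 3). Knockout minus wild type was 0.75 on vehicle, 0.57 on IIAEK and 0.66 over both (SE 0.09), which is 1.58-fold. It was 0.73 on the first slide, 0.69 on the second and 0.71 in the block fit. The 2 treatments overlapped within each genotype. The processed signal of this probe ran from 70.4 to 150 units over the arrays, and with normexp background correction on the median signals the difference over both treatments was 0.44. The second Ddx59 probe was well above background on 4 of 12 arrays. It lay between -6.48 and -4.85 in wild type and between -6.14 and -5.11 in the knockout, so that the genotypes overlapped on it, and its difference over both treatments was 0.26.

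Acadl was lower in the knockout. It was measured at 3.65, 4.28 and 3.94 in wild type on vehicle and at 3.69, 3.81 and 3.85 in wild type on IIAEK. In the knockout it was 3.37, 3.09 and 3.48 on vehicle and 3.26, 3.05 and 3.28 on IIAEK. All 6 knockout arrays lay below all 6 wild-type arrays, and the gap of 0.17 between knockout vehicle replicate 3 and wild-type vehicle replicate 1 was the narrowest of the 3 genes that separated. The wild-type mean was 3.96 ± 0.32 with vehicle and 3.78 ± 0.08 with IIAEK, against 3.31 ± 0.20 and 3.20 ± 0.13 for the knockout (SD, n = 3). Knockout minus wild type was -0.64 on vehicle, -0.58 on IIAEK and -0.61 over both (SE 0.12), which is 1.53-fold lower. It was -0.48 on the first slide, -0.59 on the second and -0.53 in the block fit. By mean the order was knockout IIAEK, knockout vehicle, wild-type IIAEK and wild-type vehicle, and the arrays of the 2 treatments overlapped in each genotype.

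**Figure D1:**
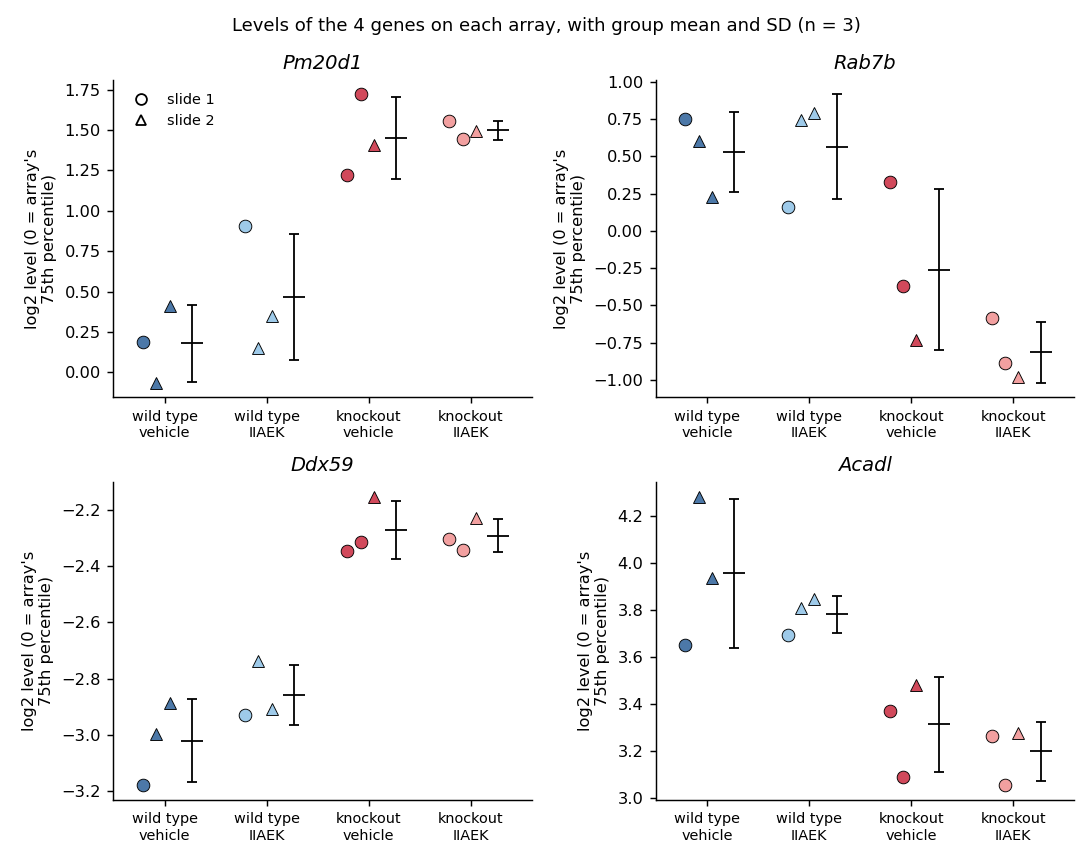
Log2 level of Pm20d1, Rab7b, Ddx59 and Acadl on each of the 12 arrays (vertical axis, 0 is the array's 75th percentile) in the 4 groups (horizontal axis), with circles for slide 1, triangles for slide 2 and bars for the group mean and SD of 3 arrays. The knockout points lie apart from the wild-type points in Pm20d1, Ddx59 and Acadl, with gaps of 0.32, 0.39 and 0.17, and cross them in Rab7b.

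None of the 4 genes passed a limma adjusted p of 0.05 over all 27565 genes in the genotype comparison that chose them, whether over both treatments, on vehicle alone or on IIAEK alone. This check uses the values that chose the genes, and no result rests on it. On each single treatment limma called 0 of 27565 genes (0%), with 3132 at an unadjusted p under 0.05 on vehicle and 2111 on IIAEK. Over both treatments limma called 1 of 27565 genes (0.00363%), Glrp1, and 1479 had an unadjusted p under 0.05. The limma adjusted p came under 0.05 for Pm20d1 and Rab7b when knockout vehicle replicate 1 was left out. It did so for Pm20d1 also without wild-type IIAEK replicate 1. Non-overlap of the 6 knockout and 6 wild-type arrays was seen in 99 of all 27565 genes (0.359%). Of these, 59 lay above wild type (0.214%), as Pm20d1 and Ddx59 did, and 40 lay below (0.145%), as Acadl did. By p-value over both treatments the 4 genes held places 1 to 4 among the 706 tested genes of chromosome 1 beyond 20 Mb. These counts restate how the genes were chosen and add no support for them.

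The genes that came next by p-value beyond 20 Mb were Etnk2, Dars, Ipo9, Kansl1l and Tnnt2. Etnk2, an ethanolamine kinase, differed by 2.50 (SE 0.57) but overlapped between genotypes, with wild-type levels from -6.29 to -3.001 and knockout levels from -3.23 to -1.76. Dars, the cytosolic aspartyl-tRNA synthetase, differed by -0.58 (SE 0.13). Ipo9, an importin for nuclear transport, differed by 0.72 (SE 0.17), and its 6 knockout levels, from -1.98 to -1.31, lay above its wild-type levels of -2.73 to -2.004. Kansl1l differed by -0.64 (SE 0.16) and Tnnt2, a troponin of cardiac muscle, by -1.20 (SE 0.31). The step from the 4 genes to these 5 was one of p-value and not of size, since Etnk2, Ipo9, Kansl1l and Tnnt2 each differed by more than Acadl did. Ren2, a renin gene with a near-identical copy, Ren1, that its probe may not tell apart, has its position in the annotation on an alternate locus and so was not among the 706. It differed by 2.60 (SE 0.58), with wild-type levels of -4.63 to -1.63 overlapping knockout levels of -2.06 to -0.11, and is named here after its values were seen.

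Along the chromosome, Acadl lies on one side of Akp3 and the other 3 genes lie on the opposite side. In order of position it is the 113th tested gene before Akp3, and Myl1 and Lancl1 are the only tested genes between it and the 20 Mb limit. Rab7b and Pm20d1 are the 153rd and 154th tested genes after Akp3, and Ddx59 is the 217th. The share of tested genes whose 6 knockout arrays did not overlap the 6 wild-type arrays was 2.53% within 5 Mb of Akp3 (2 of 79, Glrp1 and Ngef). It was 2.42% from 5 to 20 Mb (3 of 124, Farp2, Pam and Utp14b) and 0.850% beyond 20 Mb (6 of 706). The 6 were Pm20d1, Ddx59, Acadl, Ipo9, Serpinc1 and Ubxn4, of which 3 lay above wild type and 3 below. On the other autosomes the share was 0.279% (40 of 14361). Unadjusted p-values under 0.05 followed the same order, with 15.2%, 14.5%, 8.22% and 4.32% of genes in the 4 classes. These shares include the chosen genes and are descriptions.

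**Figure D2:**
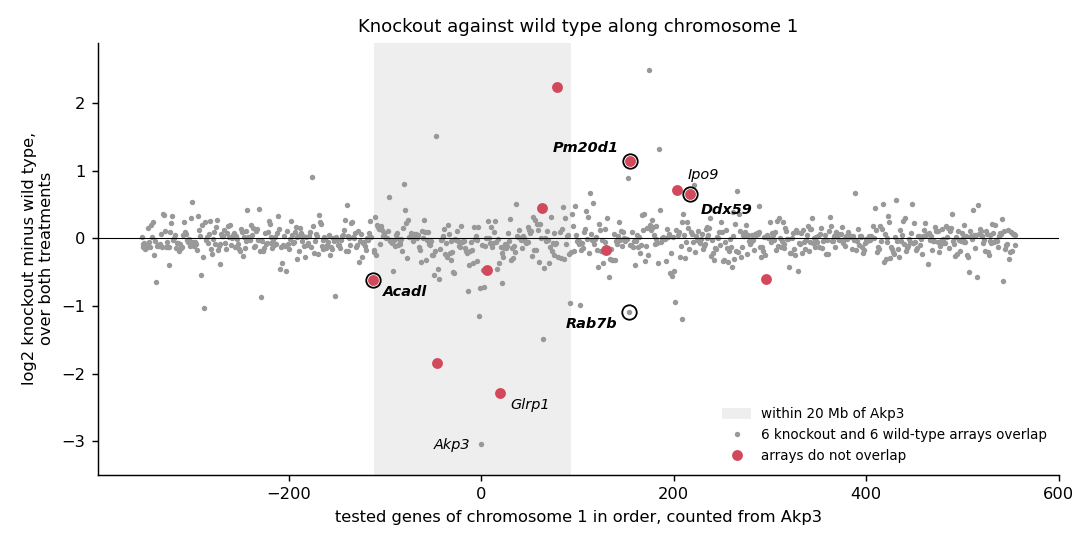
Log2 difference of knockout minus wild type over both treatments (vertical axis) for the 909 tested genes of chromosome 1 in order, counted from Akp3 (horizontal axis), with the stretch within 20 Mb of Akp3 shaded, genes whose 6 knockout and 6 wild-type arrays do not overlap in red, and the 4 genes circled. Acadl lies at the left edge of the shaded stretch at -0.61, and Rab7b at -1.09 and Pm20d1 at 1.15 stand side by side to its right.

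Rab7b and Pm20d1 sit beside each other with opposite differences, and the tested genes around them had a median difference near 0. In the reference annotation 2 genes lie between them, Slc26a9, a chloride transporter gene, and the uncharacterised Gm30104. Of the 22 other tested genes within 1 Mb of Pm20d1, 8 had a difference above 0 and 14 below, with a median of -0.03. None was called, 1 had an unadjusted p under 0.05 and none separated between genotypes. The differences ran from -0.40 in Mfsd4a to 0.89 in Ctse. Ctse, which encodes the aspartic protease cathepsin E and is the nearest tested gene on the far side of Rab7b, differed by 1.66 on vehicle and 0.13 on IIAEK. Slc41a1, a magnesium transporter gene and the nearest tested one beyond Pm20d1, differed by -0.09. The genes within 1 Mb of Rab7b were the same but for 3 more, with 9 of 25 above 0.

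Near Ddx59, 11 of 18 tested genes within 1 Mb had a difference above 0 and 7 below, with a median of 0.06. None was called, 3 had an unadjusted p under 0.05 and 1, Ipo9, separated between genotypes. The range was -1.20 in Tnnt2 to 0.80 in Nr5a2, a nuclear receptor of intestinal crypts. The tested genes on either side of Ddx59 were Gpr25, an orphan receptor gene that differed by -0.16, and Kif14, a mitotic kinesin gene that differed by 0.10. Both stood below the 0.66 of Ddx59, which was chosen on this difference.

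Near Acadl, 4 of 7 tested genes within 1 Mb had a difference above 0 and 3 below, none was called and none separated. Kansl1l, the neighbour on the side away from Akp3, was also lower in the knockout, by -1.02 on vehicle and -0.25 on IIAEK, and its wild-type levels of -2.14 to -0.85 overlapped its knockout levels of -2.30 to -1.74. Myl1, a myosin light chain gene on the side toward Akp3, differed by -0.19. Cps1, the urea cycle enzyme of liver and gut and the first tested gene inside the 20 Mb limit, differed by 0.32, opposite to Acadl.

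**Figure D3:**
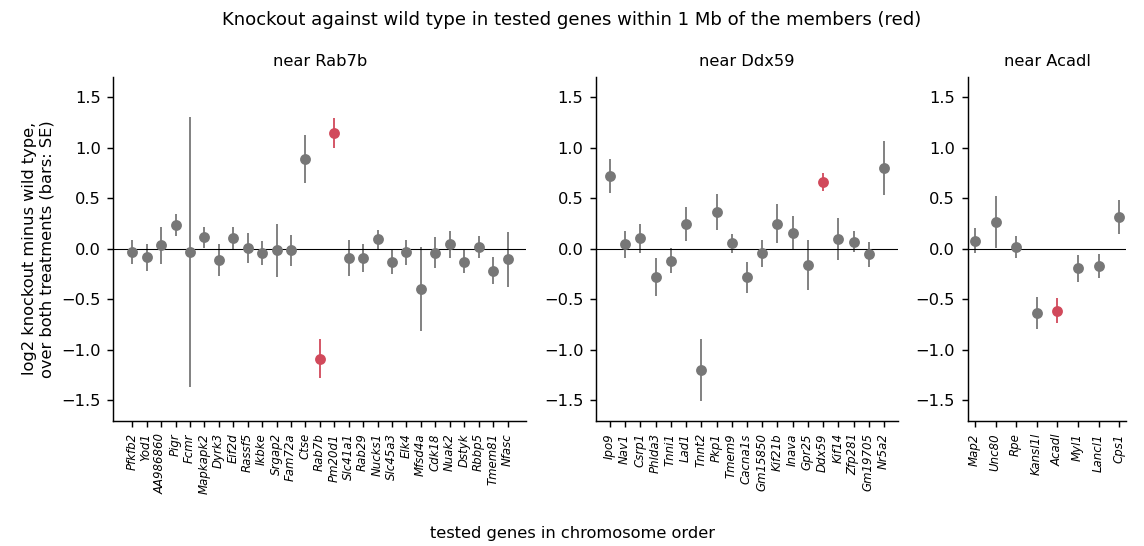
Log2 difference of knockout minus wild type over both treatments, with SE bars, for each tested gene within 1 Mb of Rab7b, Ddx59 and Acadl in chromosome order (horizontal axis), with the 4 genes in red. Rab7b at -1.09 and Pm20d1 at 1.15 are adjacent and opposite, while most genes around them lie near 0. Ddx59 at 0.66 stands above the genes on either side of it, and Acadl at -0.61 lies beside Kansl1l at -0.64.

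The sequences just upstream of Acadl and Ddx59 are shown because both genes separated by genotype, in opposite directions, and are those of the 4 in the RefSeq promoter table used here (GRCm38.p6). Each is the 250 bases before the gene's start, 5′ to 3′ on the gene's strand, at chr1:66863310-66863559 on the minus strand for Acadl and chr1:136415021-136415270 on the plus strand for Ddx59. The capitals mark CCGCCC, which is the GC box GGGCGG on the opposite strand, the core bound by Sp1-type zinc finger proteins.
Acadl: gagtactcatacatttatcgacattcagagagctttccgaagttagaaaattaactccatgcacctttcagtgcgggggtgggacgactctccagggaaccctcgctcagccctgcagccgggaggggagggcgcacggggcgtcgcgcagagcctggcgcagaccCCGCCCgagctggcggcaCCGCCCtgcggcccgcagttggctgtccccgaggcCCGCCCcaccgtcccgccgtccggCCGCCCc
Ddx59: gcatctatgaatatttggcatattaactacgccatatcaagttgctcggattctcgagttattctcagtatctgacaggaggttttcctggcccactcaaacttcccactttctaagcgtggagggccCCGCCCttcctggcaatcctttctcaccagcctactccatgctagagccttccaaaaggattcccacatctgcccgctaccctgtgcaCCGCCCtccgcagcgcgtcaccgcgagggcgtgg
Acadl has 4 such matches and 68% G and C, and Ddx59 has 2 matches and 54.4%. The median G and C content of the 32851 promoters in the table is 52.4%, and 32.7% of them hold GGGCGG on either strand. No match on either strand was found in either sequence for TATAAA (in 12.4% of promoters), CCAAT (33.8%), CACGTG (6.02%), AGGTCA (14.0%) or AGATAA (9.99%), so no marked match overlaps another motif searched. These letters are a description of the window.

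IIAEK was compared with vehicle within each genotype, which asks whether the peptide changed these genes. The estimated IIAEK differences are independent of the genotype difference averaged over treatments, although the way the genes were chosen does not state which treatments were used. Each gene's spread is shared by all comparisons, so the SEs, intervals and p-values given for IIAEK may still depend on the choice. No member passed in wild type, in the knockout or in the difference between the 2 (limma, 27565 genes). Over all genes limma called 0 genes (0%) in each of the 3 comparisons, with 3591, 1217 and 4157 genes at an unadjusted p under 0.05.

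In wild type, IIAEK minus vehicle was 0.29 for Pm20d1 (SE 0.21, 95% confidence interval -0.17 to 0.75, limma adjusted p = 0.504) and 0.04 for Rab7b (SE 0.27, interval -0.56 to 0.63, adjusted p = 0.953). It was 0.16 for Ddx59 (SE 0.13, interval -0.12 to 0.45, adjusted p = 0.534) and -0.17 for Acadl (SE 0.17, interval -0.56 to 0.21, adjusted p = 0.619). Each interval holds 0, and the arrays of the 2 treatments overlapped in all 4 genes. The intervals for Pm20d1 and Rab7b reach 0.75 and 0.63.

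In the knockout, the difference was 0.05 for Pm20d1 (interval -0.41 to 0.51), -0.02 for Ddx59 (interval -0.30 to 0.26) and -0.11 for Acadl (interval -0.50 to 0.27), with limma adjusted p-values of 0.979, 0.985 and 0.933. Rab7b differed by -0.56 (interval -1.15 to 0.04), with an unadjusted p of 0.0636 and an adjusted p of 0.910 by limma. Its 3 knockout IIAEK arrays, at -0.59, -0.89 and -0.98, overlapped knockout vehicle replicate 3 at -0.74 and lay below replicates 1 and 2 at 0.33 and -0.37. The Rab7b value was -0.26 without knockout vehicle replicate 1 and -0.79 without knockout vehicle replicate 3. Slide as a block leaves these values as they are, because each genotype had the same slide layout on both treatments.

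The IIAEK difference in the knockout minus that in wild type was -0.24 for Pm20d1 (SE 0.30, limma adjusted p = 0.701), -0.59 for Rab7b (SE 0.38, interval -1.43 to 0.25, adjusted p = 0.448), -0.18 for Ddx59 (SE 0.18, adjusted p = 0.627) and 0.06 for Acadl (SE 0.25, adjusted p = 0.917). With 3 arrays per group these tests leave wide intervals, and a missed threshold does not show that the genotypes respond alike.

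**Figure D4:**
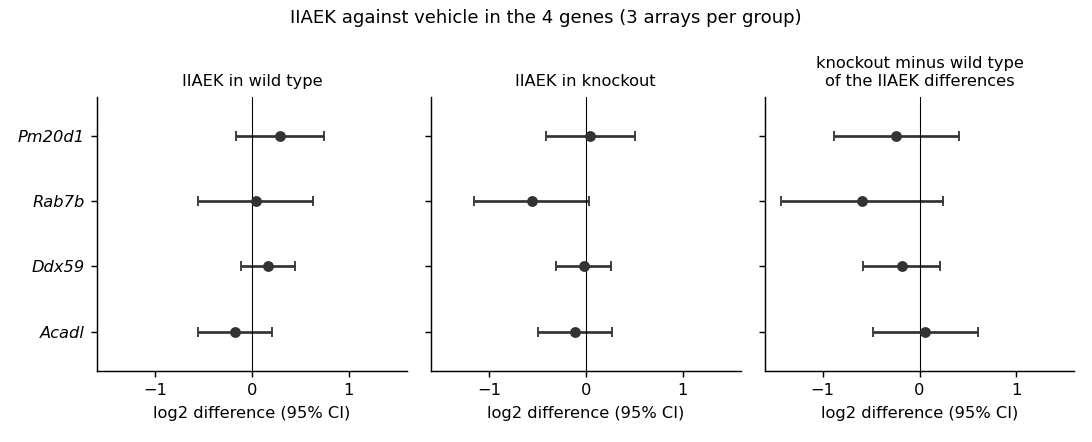
Log2 difference of IIAEK minus vehicle with 95% confidence intervals (horizontal axis) for the 4 genes in wild type, in the knockout, and as the knockout difference minus the wild-type difference. Of the 12 intervals all cross 0, and the one for Rab7b in the knockout, from -1.15 to 0.04, has its upper end nearest to 0.

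Markers of other cell types varied between the arrays alongside these genes. Fewer cells of a type and less RNA per cell cannot be told apart in whole jejunum. The summed level of 8 B cell and follicle markers, as a linear multiple of the 75th percentile, ran from 9.30 to 13.4 in the knockout on vehicle and from 1.66 to 2.37 in the knockout on IIAEK, while over both treatments in wild type it ran from 1.72 to 13.9. Fcmr, the IgM Fc receptor gene of B cells, lies within 1 Mb of Rab7b and Pm20d1 and was well above background on 6 of 12 arrays. The 5 macrophage and dendritic cell markers, the cells in which Rab7b is best known, summed to 16.4 to 21.9 in the knockout on vehicle and 13.2 to 19.9 in the knockout on IIAEK. In wild type the sums of the 2 treatments lay apart in the list of 2 ileal markers and in 3 others. The ileal markers summed to 0.1295 to 0.443 on vehicle and 0.0971 to 0.125 on IIAEK. The macrophage and dendritic markers summed to 14.7 to 17.0 on vehicle and 18.2 to 24.0 on IIAEK, the smooth muscle markers to 39.6 to 64.1 and 68.8 to 117, and the enterocyte markers to 1872 to 2025 and 1402 to 1854. These lists therefore differed between the treatments in the same wild-type arrays that gave the IIAEK values of the 4 genes. Their part in those values and in the Rab7b difference on IIAEK was not tested.

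By genotype the sums overlapped for every marker list, although the median difference of single markers was large in 2 lists. The enterocyte markers summed to 1402 to 2025 in wild type and 1761 to 1989 in the knockout, and the macrophage and dendritic markers to 14.7 to 24.0 and 13.2 to 21.9. The 6 adipose and mesentery markers, tissue in which Pm20d1 is also expressed, summed to 23.0 to 33.2 and 21.5 to 43.3. Only 3 of these 6 were well above background on every array. The knockout difference was above 0 in 4 of 5 tested markers, with a median of 1.16, beside 1.15 for Pm20d1. The median IIAEK difference of these markers was 1.58 in wild type and -0.89 in the knockout, against 0.29 and 0.05 for Pm20d1. The 8 smooth muscle markers summed to 39.6 to 117 and 62.3 to 91.3, with 7 of 8 above 0, and the 6 fibroblast markers to 45.9 to 78.5 and 47.6 to 88.8, with 6 of 6 above 0. The 8 markers of duodenum and pancreas summed to 6.45 to 1972 in wild type and 4.01 to 178 in the knockout, with 0 of 7 tested markers above 0 and a median of -2.61. The medians of the enterocyte, macrophage and dendritic, smooth muscle, fibroblast and B cell lists lay between -0.07 and 0.25. The 2 ileal markers summed to 0.0971 to 0.443 in wild type and 0.0929 to 0.545 in the knockout. Their part in the genotype differences was not tested.

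Pm20d1 was read beside the enzymes around it. Of 9 other tested genes of N-acyl amino acid and M20 peptidase metabolism, none passed, and the knockout difference over both treatments was above 0 in 8, with a median of 0.06 against -0.0044 for all genes. The 2 with the smallest p were Pm20d2, a related dipeptidase gene, at 0.31 (SE 0.16), and Acy1, the N-acyl amino acid hydrolase gene aminoacylase, at 0.22 (SE 0.15). In wild type on IIAEK 4 of the 9 were above 0 and none passed, with Aspa, the N-acetylaspartate hydrolase gene, at -1.53 (SE 0.31, limma adjusted p = 0.369). In the knockout on IIAEK 5 of 9 were above 0 and none passed.

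Among 27 other tested genes of late endosome and lysosome traffic, the setting in which Rab7b works, none passed and the knockout difference was above 0 in 7 and below in 20, with a median of -0.05. The 2 with the smallest p were Rab32, a Rab GTPase of lysosome-related organelles, at -0.49 (SE 0.15), and Tlr4, the endotoxin receptor gene, at -0.29 (SE 0.19), both in the direction of Rab7b. On IIAEK 13 of 27 were above 0 in wild type and 15 of 27 in the knockout, with medians of -0.01 and 0.02. None passed in either. The smallest p in the knockout was that of Rab38, a GTPase gene related to Rab32, at -0.76 (SE 0.29, limma adjusted p = 0.910).

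For Ddx59, both the helicase family and the Hedgehog pathway were read. Of 34 other DEAD-box helicase genes none passed, and 22 had a knockout difference above 0, with a median of 0.04 and the smallest p in Ddx19b, an mRNA export helicase, at 0.26 (SE 0.10), and Ddx39b at 0.22 (SE 0.13). On IIAEK in wild type 23 of 34 were above 0, with a median of 0.14 against -0.06 for all genes, and none passed. An unadjusted p under 0.05 was seen in 12 of the 34, against 13.0% of all genes in this comparison, with the smallest in Ddx28 at 0.56 (SE 0.15) and Ddx21 at 0.83 (SE 0.25). In the knockout 14 of 34 were above 0, with a median of -0.10, none passed and 0 had an unadjusted p under 0.05 by limma. Of 13 Hedgehog pathway genes none passed, and 9 had a knockout difference above 0, with a median of 0.15. Ofd1, a ciliary gene, differed by 0.19 (SE 0.11). On IIAEK 10 of the 13 were above 0 in wild type and 8 in the knockout, with medians of 0.32 and 0.08, and none passed.

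Acadl was read beside the other fatty acid oxidation genes. None of 28 tested mitochondrial genes passed. Over both treatments 19 had a knockout difference above 0 and 9 below, and they ran from -0.14 to 0.40 with a median of 0.03. The 2 with the smallest p were Acsl1, which activates long-chain fatty acids, at 0.27 (SE 0.16), and Hadh, which carries out the third step of beta-oxidation, at 0.15 (SE 0.11). Both are above 0, opposite to Acadl. All 28 lay nearer 0 than the -0.61 of Acadl, which was chosen on this difference while they were not. On vehicle alone they ran from -0.55 to 0.84, beyond the -0.64 of Acadl in size. Of 15 genes of peroxisomal oxidation and other targets of the fatty acid receptor PPARA, none passed and 7 were above 0, with a median of -0.01. On IIAEK in wild type 12 of 28 mitochondrial and 3 of 15 peroxisomal and PPARA target genes were above 0, with medians of -0.03 and -0.32, and none passed. In the knockout 11 of 28 and 4 of 15 were above 0, with medians of -0.03 and -0.11, and none passed.

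The 4 genes were also set against each other across the 12 arrays. Pm20d1 levels correlated with those of Ddx59 at Pearson's r = 0.89, with Rab7b at -0.87 and with Acadl at -0.91, Rab7b with Ddx59 at -0.84 and with Acadl at 0.75, and Ddx59 with Acadl at -0.78. The arrays share the genotype difference that chose the genes. With each array's group mean taken away, Pm20d1 correlated at -0.17 with Ddx59, -0.62 with Rab7b and -0.50 with Acadl, and the other pairs at -0.44, 0.01 and 0.56. The correlation of the neighbours Pm20d1 and Rab7b was negative by either measure, over 12 arrays in 4 groups.

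The named genes whose levels were most like those of Pm20d1 over the 12 arrays were Cdh20 (r = 0.92), Ddx59 (0.89) and Farp2 (0.89), all on chromosome 1. For Rab7b they were Cfap100 on chromosome 6 (0.92) and Stk25 (0.92) and Glrp1 (0.91) on chromosome 1. For Ddx59 they were Pam (0.90) and Kctd18 (0.89) on chromosome 1 and C2cd5 on chromosome 6 (0.90). For Acadl they were Dnajc25 on chromosome 4 (0.92), Slc6a12 on chromosome 6 (0.91) and Glrp1 (0.91). Thus 8 of these 12 places were held by chromosome 1 genes, where 909 genes were tested against 14361 on the other autosomes. These levels hold the genotype difference that chose the 4 genes, so the places are only a description. After the group means were taken away the 3 most like genes changed, with the exception of Cdh20 for Pm20d1 (0.85). They were then Col8a1 (0.90) and Wdr75 (0.84) for Pm20d1, Spag5 (0.94) and Phlda3 (0.92) among those for Rab7b, Tyr (0.97), Olfr1350 (0.94) and Kcnk16 (0.93) for Ddx59, and Icosl (0.93), Tmem91 (0.91) and Hsd17b7 (0.90) for Acadl. Among the genes most like after this step, Cdh20, Wdr75, Phlda3 and Hsd17b7 lie on chromosome 1 and the others do not. With Spearman's rho in place of Pearson's r, the 3 most like genes by level were other genes except for 1 shown for Acadl, so these likenesses are loose.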

How the data were processed

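The members, gene lists, tests and alternatives were chosen with earlier results of these data known. Total RNA was labelled with Cy3 and hybridised to Agilent 8x60K arrays, per the labels. Per the file headers, the authors' scanner files came from Feature Extraction 10.7.3.1, and their processed intensity is background-subtracted but not scaled between arrays. The authors' deposited value table holds log2 values that track the scaled signals, centred on each probe's median (r of at least 0.9997 on every array). This centring was found from the values and is not stated, and the column medians lay within 0.15 of 0.

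From the scanner files, 0 to 4 non-uniform spots per array were removed, none was saturated, log2 processed signals were averaged over a probe's spots, and each array's 75th percentile was subtracted. RefSeq accessions named 32994 of 56605 probes through a table on GRCm38.p6, whereas the array is annotated on mm9. That table served for names, order and coarse distance. The brightest probe stood for a gene. Genes were tested if well above background on every array of 1 or more groups, 27565 in all. The 4 group means were fitted over 12 arrays with limma 3.58.1 in R 4.3.3 (8 residual and 3.37 prior degrees of freedom), two-sided, with Benjamini-Hochberg adjustment over all genes and a threshold of 0.05. The scripts were tested on simulated data. The number of arrays limits the precision, and with 3 against 3 an exact permutation test cannot give a p below 0.1. Arrays of 1 group correlated at 0.978 to 0.992 across genes and arrays of different groups at 0.965 to 0.994.

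Genes named are the 4 members, Akp3, the 2 genes of smallest p in each list where none passed, the nearest tested neighbours, the 3 named genes most like each member, and the 5 next by p beyond 20 Mb. Neighbours at the ends of a range and genes that separated are named too, chosen after their values were seen. A few genes that this rule takes are not reported here. Alternatives were normexp on median signals (offset 50), quantile normalization, the deposited table, no filter on dim probes, trend and robust variance, slide, replicate number, the groups compared alone, other probes and each array left out.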

Additional observations from a re-analysis of the deposited data

How the results depend on the processing

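The genotype difference of all 4 genes over both treatments kept its sign under every alternative. Its limma adjusted p over all genes came under 0.05 for Pm20d1 and Ddx59 with quantile normalization. It did so for Pm20d1 also with normexp on median signals and with trend and robust variance. These fits reuse the arrays on which the genes were chosen, so the kept sign and the adjusted p-values add no support for them. The count of all genes called in each setting is given below. With normexp the Ddx59 difference was 0.44 over both treatments and 0.40 on vehicle. On the other Ddx59 probe it was 0.26 over both, 0.25 on vehicle and 0.28 on IIAEK. Within slide 1, knockout minus wild type was 0.60 for Pm20d1 on IIAEK, -0.90 for Rab7b on IIAEK and -0.42 for Acadl on vehicle, and within slide 2 Rab7b on IIAEK was -1.75. The cause was not tested.

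IIAEK values near 0 changed sign in places. With normexp, IIAEK in the knockout was -0.0042 for Pm20d1 and 0.051 for Ddx59, IIAEK in wild type was -0.024 for Ddx59, and the Ddx59 difference between genotypes was 0.075. With quantile normalization IIAEK in the knockout was 0.0201 for Ddx59 and the Acadl difference between genotypes was -0.046. On the other Ddx59 probe these were 0.071 in the knockout and 0.037 between genotypes. Within slide 1, where IIAEK in wild type is 1 array against 1, Rab7b was -0.59 and Acadl 0.042 in wild type, Ddx59 was 0.0072 in the knockout, and the Acadl difference between genotypes was -0.11. Within slide 2, where IIAEK in the knockout is 1 array against 1, the Pm20d1 difference between genotypes was 0.0106. With each array left out in turn, IIAEK in the knockout ran from -0.067 to 0.18 for Pm20d1 and from -0.058 to 0.0386 for Ddx59, IIAEK in wild type from -0.11 to 0.24 for Rab7b, and the Acadl difference between genotypes from -0.10 to 0.21.

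The count of genes that limma called in knockout against wild type over both treatments was 1. It was 2 with normexp, 4 with quantile normalization, 3 with trend and robust variance, 0 within slide 1 and 114 within slide 2. With each array left out it ran from 0, when knockout IIAEK replicate 2 was dropped, to 10, when knockout vehicle replicate 1 was. Leaving out wild-type IIAEK replicate 1 gave 8, and leaving out wild-type vehicle replicate 3 gave 4. On vehicle it was 1 with only the groups compared, 14 within slide 1, 11 within slide 2 and 0 to 2 with each array left out. On IIAEK it was 4 with only the groups compared, 1 with slide as a block, 40 within slide 2 and 0 to 2 with each array left out. For IIAEK in wild type it was 1 with slide as a block, 1 within slide 1, 10 within slide 2 and 0 to 1 with each array left out. For IIAEK in the knockout it was 14 with only the groups compared, 7 within slide 1 and 19 within slide 2, and for the difference between genotypes it was 4 within slide 2. No other tool was run.

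Same-numbered replicates of different groups did not deviate together, with correlations from -0.25 to 0.35 over 18 pairs. With the replicate block the genotype differences were 1.15 for Pm20d1, -1.09 for Rab7b, 0.66 for Ddx59 and -0.61 for Acadl, and the count of called genes was 1. None of the 12 samples correlated best with those of its own number.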
